A study of Mus musculus with 7 samples.

Results

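Cut Achilles tendon was compared with the intact tendon of the opposite leg, 3 weeks after injury, in 5 of the 7 mouse RNA sequencing libraries of the series. The comparison took the 2 libraries whose condition label names the tenotomy site and the 3 whose label names the contralateral hindlimb tendon, and the 2 libraries of uninjured mice entered no fit. All mice were of C57BL/6 background. Every mouse behind these 5 libraries had received the combined injury: a burn of the back, in which 30% of the body surface was exposed for 18 s to an aluminium plate of 60 °C, and a transection at the middle of the Achilles tendon of the left hindlimb, closed with a skin suture, with buprenorphine for pain. The contralateral libraries came from the uncut right leg of such mice, so both groups carried the systemic effects of the burn. Tissue was taken between the insertion in the gastrocnemius muscle and the attachment at the heel bone. The study asked what role TAK1, the TGF-β activated kinase encoded by Map3k7, has in the formation of cartilage and bone in soft tissue after injury. No library of the 5 is labelled as carrying an altered Map3k7 gene. The labels do not say which libraries came from the same mouse or whether mice were pooled, so p-values measure the spread between these libraries only.

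Tendon is built by tenocytes, fibroblasts that lay down parallel bundles of type I collagen and are marked by the transcription factor Scx and the membrane protein Tnmd. After a cut, fibroblasts fill the gap with a provisional matrix of fibronectin, tenascins and type III collagen, macrophages clear debris, and proteases remodel the scar. In heterotopic ossification, which follows burn and tenotomy in mice, cells at the site pass through a cartilage stage, marked by Sox9, type II collagen and aggrecan, before bone forms. TAK1 relays signals of TGF-β and BMP receptors to stress-activated MAP kinases and NF-κB.

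The libraries held between 25926984 and 36724920 estimated counts, but 5 features (Gm42418, Lars2, Mir6236, mt-Rnr2 and an unmatched transcript) took 76.4% to 77.2% of them in contralateral and 80.8% to 81.3% in tenotomy libraries. Protein-coding genes other than Lars2 received 2335845 to 4210734 counts a library. The contralateral libraries were rich in skeletal muscle RNA: the sarcomere list took 24.9% to 25.9% of protein-coding counts there and 3.40% and 3.42% at the tenotomy site. Tenocyte markers were present in both groups. Matn1, Bglap, Sp7, Krt5, Krt14, Cd3e, S100a8 and S100a9, markers of mature cartilage, bone, epidermis, T cells and neutrophils, were at or near 0 counts in all 5 libraries. Of the other bone markers, Dmp1 had 4 to 12 counts, and Ibsp had 130 to 224 counts in contralateral and 3 in each tenotomy library. In bulk tissue, fewer cells of a type and less RNA per cell cannot be told apart. The 2 tenotomy libraries differed from each other by 1.59 times the counting noise (chi-square per degree of freedom), the contralateral pairs by 4.38 to 8.40 times, and pairs across the groups by at least 118.2 times. The library labelled uninjured replicate 1 held far more Postn and far less Ckm than uninjured replicate 2. Neither library entered the main fit, and whether the label of replicate 1 is right was not tested.

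Change was spread over the whole transcriptome. Of 16014 features tested with edgeR's quasi-likelihood test, 7385 (46.1%) passed an adjusted p of 0.05. The tenotomy site was higher in 3533 (22.1%) and lower in 3852 (24.1%). These percentages are the background against which counts of gene lists are read. Protein-coding genes, to which most list members belong, were called more often: 50.8% of 13469, with 3252 higher and 3595 lower. Values in parentheses after a gene name, and amounts after "rose by", are log2 fold changes, tenotomy over contralateral, and SE is their standard error. By size, 1776 of the higher and 2037 of the lower features passed 2-fold, while 160 and 225 passed 8-fold. Of the 225, 62 were among the 202 genes of 4 lists for muscle and oxidative phosphorylation, and 3666 of all 3852 lower features lay outside those lists. The libraries of the groups did not overlap for 63.6% of features, with the tenotomy libraries above for 31.4% and below for 32.2%.

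The balance of rises and falls depended on scaling. Trimmed mean of M values (TMM) scaling put 47.8% of calls on the higher side, upper quartile scaling 56.4% and library totals 59.2%, the last with 4227 higher and 2910 lower. Those settings moved the median of all features by 0.12 and 0.16 on the log2 scale. TMM left protein-coding genes outside the muscle lists and the mitochondrial genome at 7.01% to 7.08% of the scaled total in contralateral and 7.22% and 7.26% in tenotomy libraries. With all 7 libraries in 1 fit, 2178 features were higher and 2465 lower, and the median dispersion rose from 0.0087 to 0.0272.

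**Figure D1:**
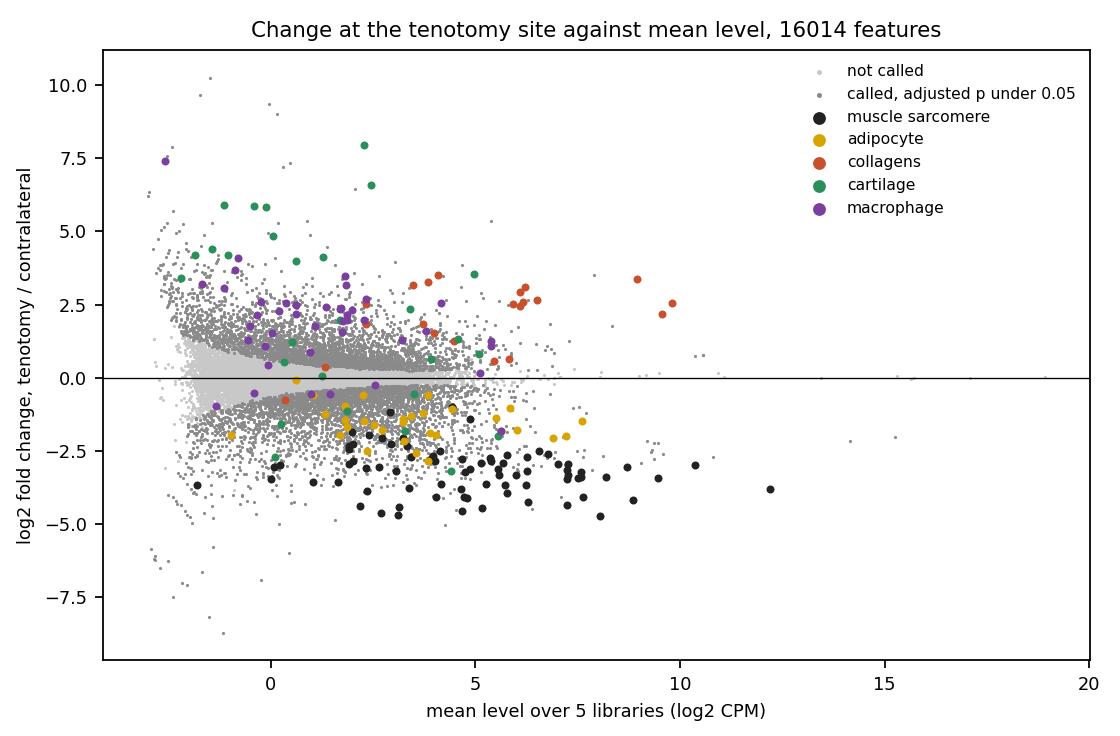
Each point is 1 of 16014 features; the horizontal axis is its mean level over 5 libraries (log2 CPM) and the vertical axis its log2 fold change, tenotomy over contralateral. Muscle sarcomere and adipocyte genes (black, yellow) lie below 0, collagens and macrophage genes (red, purple) mostly above, and cartilage genes (green) on both sides.

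Nearly all muscle genes tested fell. All 79 tested sarcomere genes fell, with a median log2 fold change of −3.14, and 48 of 49 genes of muscle energy metabolism fell (median −2.58). Levels are given as CPM, counts scaled to a common library total, for each library in turn. Myh2, the IIa myosin heavy chain, measured 983, 1072 and 885 CPM in contralateral and 37.9 and 36.4 CPM in tenotomy libraries, with no overlap (log2 fold change −4.72, SE 0.14, edgeR adjusted p = 8.38e-10). Fabp3, the muscle fatty acid binding protein, also fell (log2 fold change −5.02, SE 0.20). Myosin heavy chains are near-identical in long stretches, so the split between them is uncertain. Oxidative phosphorylation fell too: 45 of 46 nuclear-encoded genes (median −2.15) and all 13 mitochondrially encoded protein genes (median −2.56). The latter took 9.97% to 13.2% of protein-coding counts in contralateral and 3.00% and 3.06% in tenotomy libraries. In the list of myogenic regulators 15 of 22 fell. Myh3, the embryonic myosin that marks regenerating fibres, fell from 147, 145 and 78 counts to 3 and 5, and Cdh15, the satellite cell cadherin, from 14, 37 and 26 counts to 4 and 0. Ncam1 and Megf10 went the other way (0.67 and 0.80), but the Megf10 call was lost in 4 of 5 fits that left out 1 library, and Ncam1 was −0.75 with length-scaled TPM (not called).

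Outside the 4 muscle lists, the 12 largest falls among well-expressed genes were still mostly genes that skeletal muscle is known to express, among them Flnc, the muscle filamin (−4.10), Srl, sarcalumenin (−3.67), Alpk3 (−3.81), Eef1a2 (−3.44), Perm1 (−3.42) and Tpm2 (−4.07). Myoc, which encodes a secreted protein, measured 57.3, 39.1 and 35.7 CPM in contralateral and 4.02 and 3.97 CPM in tenotomy libraries, all contralateral values above all tenotomy values (log2 fold change −3.46, SE 0.21, edgeR adjusted p = 7.58e-08).

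Fat cell genes fell almost as a block. Of 31 tested genes of the adipocyte list 30 were lower (median −1.52) and none higher, and without members of the muscle lists 27 of 28 were lower (median −1.49). Plin1, which coats the lipid droplet, measured 12.95, 14.4 and 15.1 CPM in contralateral and 5.00 and 4.84 CPM in tenotomy libraries. Adipoq, the fat cell hormone adiponectin, measured 15.1, 21.1 and 19.4 CPM in contralateral and 7.24 and 8.74 CPM in tenotomy libraries, and Cidec, a lipid droplet fusion protein, also fell (−1.22 and −1.43). In none of the 3 genes did the groups overlap. Gpam, which starts triglyceride synthesis, fell most outside the muscle lists (log2 fold change −2.59, SE 0.12). Car3, the most abundant member, was 4.01-fold lower, but muscle also expresses it. With all 7 libraries in the fit, 19 members were lower. The calls of Adipoq and Fabp4 (−1.21 and −1.03 in that fit) were among those lost.

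Genes of the circadian clock and of the glucocorticoid response also fell as a group, by less. Of 35 tested, 24 were lower and 2 higher (median −0.59), and among the 19 clock genes 13 were lower and 1 higher. Klf15, induced by glucocorticoids, measured 4.86, 4.31 and 3.27 CPM in contralateral and 1.23 and 1.21 CPM in tenotomy libraries (log2 fold change −1.75, SE 0.20). Ciart, a repressor in the clock, measured 0.964, 1.63 and 1.42 CPM in contralateral and 0.492 and 0.471 CPM in tenotomy libraries (log2 fold change −1.49, SE 0.29). Neither gene overlapped between the groups. The output genes Dbp (−0.87) and Tef (−0.87) and the glucocorticoid targets Zbtb16 (−1.68), Fkbp5 (−0.61) and Tsc22d3 (−0.60, a call lost without tenotomy replicate 2) were lower. Npas2, a partner of the core clock, was higher (2.28), a call lost without tenotomy replicate 1. Mt1, a metallothionein that glucocorticoids induce, was the other higher gene (0.69, a call lost without contralateral replicate 2 or either tenotomy library), while Arntl (0.28) and Clock (0.03) did not pass. Several members, Klf15 among them, are also expressed in muscle, and the part of muscle content in these falls was not tested. The labels used here give no time of day of harvest. In the fit of all 7 libraries 14 members were lower.

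The list of hypoxia and glycolysis genes fell in the same direction, with 22 of 42 lower and 6 higher (median −0.51). Egln3, an oxygen sensor of the hypoxia pathway, measured 2.43, 3.88 and 4.57 CPM in contralateral and 0.219 and 0.370 CPM in tenotomy libraries (log2 fold change −3.66, SE 0.35). Hk2, the inducible hexokinase, measured 44.9, 58.3 and 54.6 CPM in contralateral and 6.89 and 7.09 CPM in tenotomy libraries (log2 fold change −2.91, SE 0.13). All tenotomy values of both genes lay below all contralateral values. Vegfa, the vascular growth factor that hypoxia induces, fell (−1.61), as did Bnip3 (−2.31) and Pdk1 (−1.74). Hif1a, the oxygen-regulated transcription factor subunit, was higher (1.59), and so were the enolase Eno2 (1.74) and the myeloid hexokinase Hk3 (2.05, a call lost without tenotomy replicate 1). Muscle expresses Hk2, Gapdh and other members of this list, and the part of muscle content in these falls was not tested.

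**Figure D2:**
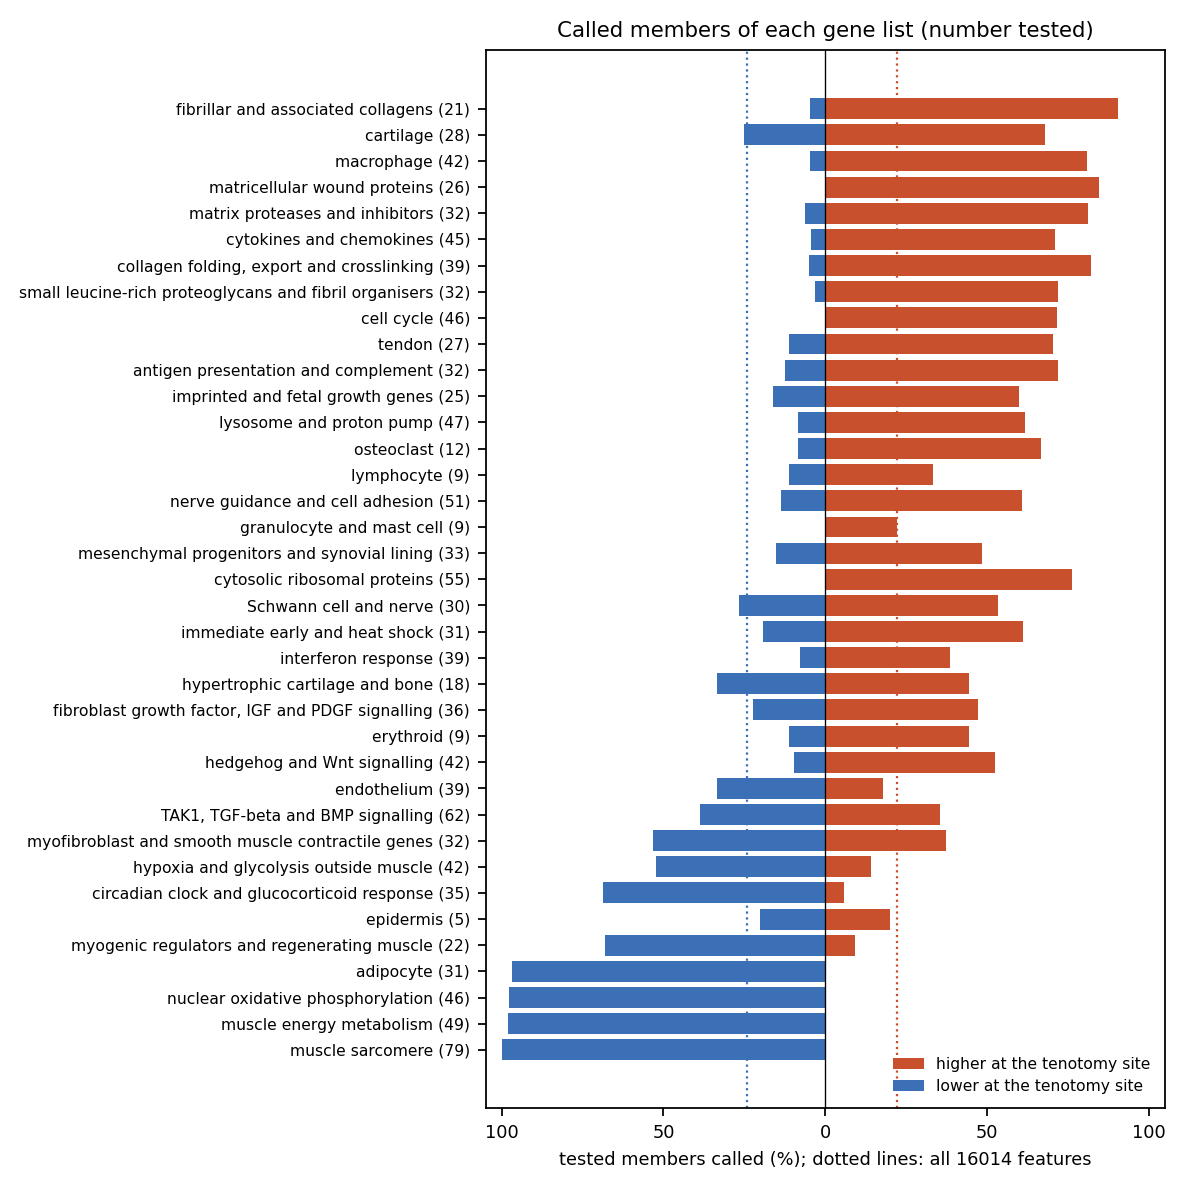
For each of 37 gene lists, bars show the percent of tested members called higher (red, to the right) or lower (blue, to the left) at the tenotomy site, ordered by median log2 fold change, with the number tested in parentheses. Dotted lines mark the 22.1% and 24.1% of all features; collagens lead the rises with 19 of 21 and the sarcomere list the falls with 79 of 79.

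Collagens rose widely. Of 21 fibrillar and associated collagens 19 were higher and 1 lower (median 2.51), and the list went from 1.01% to 1.30% of protein-coding counts in contralateral libraries to 10.5% and 10.6% at the tenotomy site. Col1a1, the chain of the main tendon collagen, measured 492, 468 and 373 CPM in contralateral and 2577 and 2606 CPM in tenotomy libraries (log2 fold change 2.55, SE 0.13, edgeR adjusted p = 2.53e-08). Col3a1, of the scar collagen type III, measured 175, 205 and 200.4 CPM in contralateral and 2020.5 and 2016 CPM in tenotomy libraries (log2 fold change 3.38, SE 0.12). The tenotomy values of both lay far above every contralateral value. Within this list Col14a1, on the fibril surface, rose most (log2 fold change 3.51, SE 0.10). Col8a1 (3.26), Col16a1 (3.18) and Col5a2 (3.10) rose too. Col2a1 (7.97), Col9a1 (4.86) and Col11a1 (3.54) rose more and are described with the cartilage genes. Col7a1, of anchoring fibrils in skin, was the exception (−0.78), but its call was lost in 3 of 5 fits that left out 1 library and it was 0.49 with length-scaled TPM.

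The machinery that folds, exports and crosslinks collagen rose with it: 32 of 39 genes were higher and 2 lower (median 1.39). P4ha3, a prolyl hydroxylase subunit, rose most (log2 fold change 3.37, SE 0.25), Plod2, the telopeptide lysyl hydroxylase, rose by 2.67, and the collagen chaperone Serpinh1 by 1.95. Bmp1, the protease that trims procollagen, rose by 1.87. The 2 falls were Tmem38b (−2.08), a calcium-store ion channel, and Pcolce2 (−0.84), an enhancer of procollagen cleavage whose call was lost in the fit of all 7 libraries.

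Small proteoglycans and fibril organisers were unequal. Of 32, 23 were higher and 1 lower (median 1.38). Lum, lumican, measured 8.13, 10.1 and 8.09 CPM in contralateral and 126 and 126 CPM in tenotomy libraries (log2 fold change 3.84, SE 0.12), and Aspn, asporin, rose by 3.11. Fbn2, the fibrillin of growing tissue, measured 0.424, 0.571 and 0.401 CPM in contralateral and 14.1 and 13.9 CPM in tenotomy libraries (log2 fold change 4.89, SE 0.15). In all 3 genes the groups lay apart. Decorin, the most abundant of the family, stood against these: Dcn measured 199.7, 159 and 114 CPM in contralateral and 195 and 197 CPM in tenotomy libraries, the tenotomy values fell inside the contralateral range, and the difference did not pass (0.31, edgeR adjusted p = 0.175). Omd, osteomodulin, was called lower (−1.04) although its libraries overlapped, and the call was lost in 3 of 5 fits that left out 1 library.

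Matricellular proteins of wounds rose as a list: 22 of 26 were higher and none lower (median 1.79). Postn, periostin (GRCm38 chromosome 3, 54361109 to 54391037, plus strand), measured 9.21, 11.1 and 8.21 CPM in contralateral and 384 and 396 CPM in tenotomy libraries (log2 fold change 5.35, SE 0.13, edgeR adjusted p = 3.06e-10). Tnn, tenascin W, measured 0.0386, 0.400 and 0.0617 CPM in contralateral and 29.7 and 30.5 CPM in tenotomy libraries (log2 fold change 7.34, SE 0.27), and Cthrc1, a secreted protein of activated fibroblasts, measured 0.116, 0.285 and 0.0309 CPM in contralateral and 23.4 and 21.4 CPM in tenotomy libraries (log2 fold change 7.19, SE 0.24). All 3 genes were low in each contralateral library and close together in the tenotomy libraries. Fn1, fibronectin, rose by 3.52 and Tnc, tenascin C, by 3.49. Sparc, the most abundant member, rose by 1.76.

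**Figure D3:**
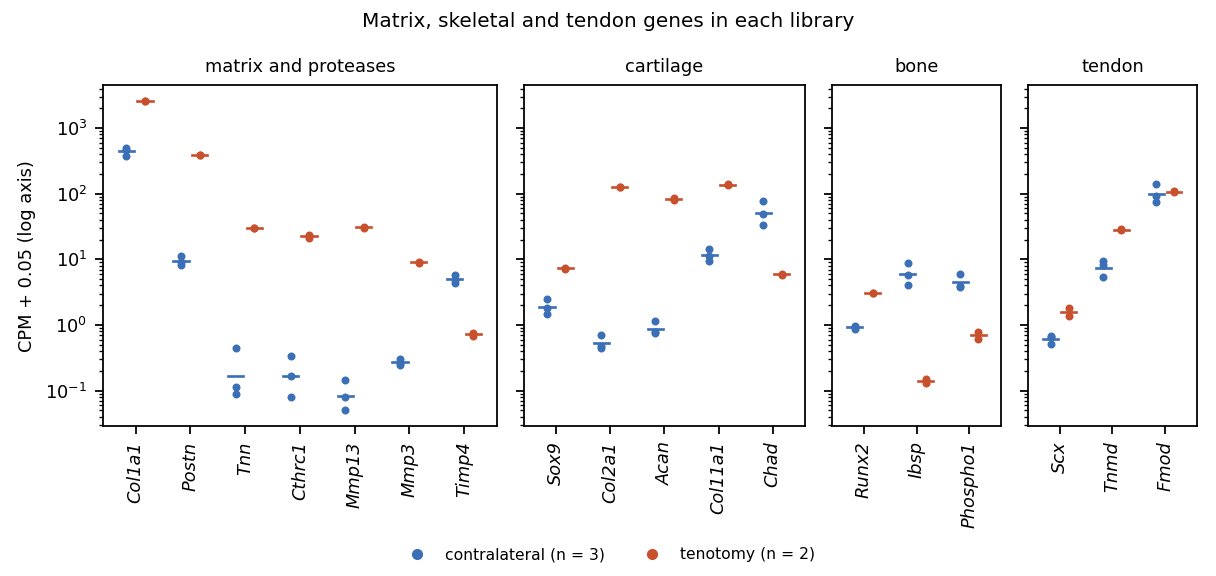
Each dot is 1 library; the vertical axis is CPM plus 0.05 on a log axis, blue for the 3 contralateral and red for the 2 tenotomy libraries, and short lines mark the geometric mean of the plotted values. Collagen, matricellular, protease and most cartilage genes were higher in both tenotomy libraries, Chad, Ibsp, Phospho1 and Timp4 lower, and Fmod overlapped.

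Matrix proteases rose in number and size, with 26 of 32 proteases and inhibitors higher and 2 lower (median 1.62). Mmp13, the collagenase of cartilage and bone remodelling, had 0, 1 and 3 counts in the contralateral libraries and 1111 and 933 in the tenotomy libraries. With 4 contralateral counts in all, the ratio was 719 with a 95% counting interval from 280.4 to 2642. Mmp3, stromelysin, measured 0.193, 0.257 and 0.216 CPM in contralateral and 8.85 and 9.04 CPM in tenotomy libraries (log2 fold change 5.29, SE 0.18, edgeR adjusted p = 1.19e-09). Both genes were low in every contralateral library and high in both tenotomy libraries. Mmp14, the membrane collagenase that activates Mmp2, rose by 3.97, and Mmp2 itself by 2.89. Mmp9 (2.94), Mmp12 (1.95), the bone collagenase cathepsin K, Ctsk (2.99), and Adam12 (4.45) rose too. The inhibitors split: Timp1 rose by 4.11 and Timp2 by 1.59, while Timp4 measured 5.78, 4.37 and 4.88 CPM in contralateral and 0.710 and 0.639 CPM in tenotomy libraries and fell (log2 fold change −2.87, SE 0.20). Timp3, the tissue inhibitor bound to matrix, was lower (−0.45), a call lost without either tenotomy library and under 2 of the other scalings.

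Promoters of 3 metalloproteases that rose are shown because they share a short element: the letters TGAGTCA or its reverse complement TGACTCA, the binding sequence of AP-1, the dimer of Fos and Jun proteins. RefSeq promoters (GRCm38.p6) were found for 24 of the 34 genes of the protease list and the 250 bases before each start site were searched for both forms, which covers both strands. The letters were present in 6 of the 24 (25.0%), namely Mmp13, Mmp3, Mmp12, Mmp10, Plaur and Adam19, against 5.16% of 27025 genes in the promoter table. All of these were higher at the tenotomy site except Mmp10, which was too low to be tested. In the whole list 26 of 32 tested members were higher, Mmp14 and Ctsk, which had no match, among them. Whether the letters go with the rise was not tested. Mmp13, Mmp3, Mmp12 and Mmp10 lie close together on chromosome 9, so their matches need not be independent. In Mmp13, Mmp3 and Mmp12 the match began 35, 46 and 44 bases before the start site. Another start site of Mmp12 and 2 of the 3 start sites of Adam19 in the table had no match. A match is a description of the letters, not a bound site. The sequences run 5′ to 3′ on the plus strand, with the match in capitals.
Mmp13, chr9:7272264-7272513: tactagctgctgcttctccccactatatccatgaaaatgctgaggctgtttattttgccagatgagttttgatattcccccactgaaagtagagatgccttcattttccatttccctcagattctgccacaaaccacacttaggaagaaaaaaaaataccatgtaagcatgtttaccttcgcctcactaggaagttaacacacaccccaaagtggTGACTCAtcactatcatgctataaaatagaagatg
Mmp3, chr9:7445572-7445821: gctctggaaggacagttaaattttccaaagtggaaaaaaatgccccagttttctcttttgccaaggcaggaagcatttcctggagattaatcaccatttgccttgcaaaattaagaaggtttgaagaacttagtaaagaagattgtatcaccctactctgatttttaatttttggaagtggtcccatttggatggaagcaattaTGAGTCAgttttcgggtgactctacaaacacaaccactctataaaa
Mmp12, chr9:7347124-7347373: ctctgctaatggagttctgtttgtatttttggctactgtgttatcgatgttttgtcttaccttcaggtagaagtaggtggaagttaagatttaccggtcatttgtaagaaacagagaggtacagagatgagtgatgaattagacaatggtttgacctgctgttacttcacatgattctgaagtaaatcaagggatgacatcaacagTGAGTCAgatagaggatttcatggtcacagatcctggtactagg

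In the immediate early and heat shock list, which holds genes of the Fos and Jun families, 19 of 31 members were higher and 6 lower (median 0.47). Fosb measured 0.463, 0.114 and 0.0926 CPM in contralateral and 1.45 and 1.55 CPM in tenotomy libraries (log2 fold change 2.84, SE 0.43), and the nuclear receptor Nr4a3 rose by 2.91, both without overlap. The falls were led by the small heat shock genes Hspb1 (−2.52) and Hspb8 (−1.91), which muscle expresses. Hspa8, the constitutive chaperone, was lower by less (−0.46), and its call was lost without either tenotomy library.

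Cartilage genes rose steeply but not all together: of 28 tested, 19 were higher and 7 lower (median 2.16). Col2a1, the chain of type II collagen (GRCm38 chromosome 15, 97975602 to 98004695, minus strand), measured 0.424, 0.657 and 0.401 CPM in contralateral and 127 and 126 CPM in tenotomy libraries (log2 fold change 7.97, SE 0.15, edgeR adjusted p = 6.35e-11). Acan, the aggrecan core protein, measured 0.694, 1.11 and 0.741 CPM in contralateral and 81.1 and 86.8 CPM in tenotomy libraries (log2 fold change 6.60, SE 0.15). Their transcriptional activator Sox9 measured 2.43, 1.74 and 1.42 CPM in contralateral and 7.10 and 7.33 CPM in tenotomy libraries (log2 fold change 1.97, SE 0.17). In each of the 3 the tenotomy libraries were close to each other and above every contralateral library, and the estimate for Sox9 was the smallest of the 3. Structural partners followed, with Col9a1 (4.86), Col11a1 (3.54), the matrilin Matn3 (5.83) and the link protein Hapln1 (4.12) all higher. Among the falls, Chad, chondroadherin, measured 76.4, 49.9 and 33.5 CPM in contralateral and 5.66 and 6.02 CPM in tenotomy libraries (log2 fold change −3.19, SE 0.29). Prg4, lubricin, which coats gliding surfaces, measured 110.1, 86.4 and 54.2 CPM in contralateral and 21.4 and 20.5 CPM in tenotomy libraries (log2 fold change −1.99, SE 0.23). In both genes contralateral replicate 3 was lowest of its group and still above the tenotomy libraries. Wif1, a secreted Wnt inhibitor, fell (−2.73), and Sox6, a partner of Sox9, was lower (−1.82) while Sox5 did not pass (0.06). The Wif1 call was lost in the fit of all 7 libraries.

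Genes of hypertrophic cartilage and bone showed no common direction, with 8 of 18 higher, 6 lower and 11 of 29 listed members too low to test. Runx2, the osteoblast regulator, measured 0.925, 0.885 and 0.833 CPM in contralateral and 2.98 and 3.03 CPM in tenotomy libraries (log2 fold change 1.77, SE 0.17, edgeR adjusted p = 3.87e-06), and its relative Runx3 rose by 2.27. Enpp1 (2.20), which makes the mineralisation inhibitor pyrophosphate, Mgp (1.31), another inhibitor, and Spp1, osteopontin (2.10), rose. Ibsp, bone sialoprotein, had 224, 203 and 130 counts in contralateral and 3 and 3 in tenotomy libraries (log2 fold change −6.01, SE 0.50), the groups far apart. Phospho1, a phosphatase of matrix vesicles, measured 3.89, 3.77 and 5.96 CPM in contralateral and 0.738 and 0.571 CPM in tenotomy libraries (log2 fold change −2.77, SE 0.27), and the alkaline phosphatase Alpl fell by a smaller factor (−1.74). Col10a1, the hypertrophic collagen, did not pass (−0.19, edgeR adjusted p = 0.758).

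In the osteoclast list 8 of 12 tested genes were higher and 1 lower (median 0.65). Atp6v0d2, a proton pump subunit used in fusion of osteoclasts, measured 0.0771, 0.114 and 0.0926 CPM in contralateral and 1.61 and 1.75 CPM in tenotomy libraries (log2 fold change 4.07, SE 0.32). Ctsk was the most abundant member, and fibroblasts also express it. Car2, the carbonic anhydrase of osteoclasts, fell (−2.09), the fusion gene Ocstamp and the acid phosphatase Acp5 did not pass (0.51 and −0.24; Acp5 was called lower without contralateral replicate 1), and Dcstamp was near 0 counts.

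The tendon programme was higher but in part. Of 27 tendon genes 19 were higher and 3 lower (median 0.96). Col1a1 was the most abundant member, and Col14a1 and Tnc were the largest rises. Col1a1 and Col14a1 are also counted in the collagen list, so the 2 counts are not independent. Scx measured 0.617, 0.628 and 0.463 CPM in contralateral and 1.34 and 1.75 CPM in tenotomy libraries (log2 fold change 1.43, SE 0.25, edgeR adjusted p = 0.000571). Tnmd measured 9.33, 8.08 and 5.40 CPM in contralateral and 28.6 and 27.5 CPM in tenotomy libraries (log2 fold change 1.89, SE 0.16). Both were above in each tenotomy library. Mkx, the tendon homeobox factor, did not pass (0.41), nor did Fmod, fibromodulin, which measured 141, 92.1 and 74.0 CPM in contralateral and 109 and 107 CPM in tenotomy libraries and overlapped; without contralateral replicate 1 both were called higher. Eya1 (−1.71) and Chodl (−1.40) fell; Eya1 also acts in muscle, and its call was lost with length-scaled TPM. Muscle RNA took a large share of the contralateral libraries, and its part in these differences was not tested.

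Markers of mesenchymal progenitors and synovial lining were higher in 16 of 33 and lower in 5 (median 0.49). Dkk3 rose by 2.48 and Fbln7 by 2.40. Pdgfra, a fibroblast and progenitor receptor, measured 15.1, 11.1 and 10.7 CPM in contralateral and 20.7 and 19.6 CPM in tenotomy libraries (log2 fold change 0.72, SE 0.13). The falls were Clic5 (−3.12), Prg4, Gsn (−1.21), Hoxc10 (−1.24) and Htra4 (−1.55, a call lost without tenotomy replicate 1). In the list of myofibroblast and smooth muscle contractile genes 12 of 32 were higher and 17 lower (median −0.29). Cnn2 (1.62) and Tpm4 (1.40), of non-muscle actin filaments, rose. Des, Tpm1 and Tpm2, which skeletal muscle shares, fell most (−3.19, −2.69 and −4.07).

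The TAK1, TGF-β and BMP list moved in both directions, with 22 of 62 genes higher and 24 lower (median −0.16). The kinase itself was lower at the tenotomy site. Map3k7 (GRCm38 chromosome 4, 31964097 to 32023467, plus strand) measured 10.5, 10.1 and 9.20 CPM in contralateral and 6.31 and 7.13 CPM in tenotomy libraries, without overlap (log2 fold change −0.57, SE 0.11, edgeR adjusted p = 0.00113), but with length-scaled TPM the change was 0.02 and did not pass. Of TAK1 and its TAB partners 3 of 4 were lower, and of the MAP kinase kinases and stress kinases listed 6 of 7. Map2k6, which activates p38, fell most (log2 fold change −2.11, SE 0.16), followed by Map2k3 (−1.55). Both are expressed in muscle.

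Of BMP ligands 2, 4, 5, 6 and 7, 4 of 5 were lower and Bmp7 did not pass, although it was called lower without tenotomy replicate 2. The calls of Bmp4, Bmp5 and Bmp6 were lost in 4, 1 and 3 of the 5 fits that left out 1 library. Bmp2, a bone-inducing ligand, measured 1.62, 0.999 and 1.08 CPM in contralateral and 0.246 and 0.403 CPM in tenotomy libraries (log2 fold change −1.92, SE 0.35). On the TGF-β side, Tgfb1 measured 1.62, 2.23 and 1.17 CPM in contralateral and 3.58 and 3.80 CPM in tenotomy libraries (log2 fold change 1.13, SE 0.21, edgeR adjusted p = 0.000822), Tgfb3 rose by 0.49, and Tgfb2 did not pass (0.10). The activin subunit Inhba rose by 1.86, the type II receptor Tgfbr2 by 1.17, and Tgfbr1 by 0.30, a call lost in 4 of 5 fits that left out 1 library. Fstl1, a secreted follistatin-like protein, was the largest rise of the list (log2 fold change 2.49, SE 0.11). Among intracellular parts, Smad1 (0.86) was higher and Smad6 (−0.93), Smad7 (−0.75) and Smad9 (−1.69) were lower. The Smad6 call was lost without tenotomy replicate 2 and the Smad9 call without tenotomy replicate 1. With length-scaled TPM Smad7 was −0.03 and did not pass. The calls of Smad6 and Smad7 were also lost in the fit of all 7 libraries. Of the BMP target genes Id1, Id2 and Id3, Id1 was lower (−0.56), a call lost without either tenotomy library, and the others did not pass, but Id2 was called higher without contralateral replicate 1 and under 2 other scalings. The count of 24 lower members was 15 without tenotomy replicate 1, 13 without tenotomy replicate 2 and 13 with library totals.

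In hedgehog and Wnt signalling 22 of 42 genes were higher and 4 lower (median 0.38). Secreted Wnt binders rose: Sfrp2 measured 3.28, 2.06 and 1.85 CPM in contralateral and 25.4 and 26.9 CPM in tenotomy libraries (log2 fold change 3.47, SE 0.16), and Sfrp1 (3.21) and Sfrp4 (2.91) rose with it, while Sfrp5 fell (−1.38). Rspo2, a Wnt agonist, went from 3, 3 and 0 counts to 26 and 21. Axin2, a direct target of Wnt signalling, fell (−1.05), as did the receptors Fzd4 (−1.34) and Fzd7 (−0.39, a call lost in 3 of 5 fits that left out 1 library). The hedgehog target Gli1 (1.74) and the transducer Smo (0.90) were higher.

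Growth factor signalling of the FGF, IGF and PDGF families gave 17 of 36 higher and 8 lower (median 0.41). Igfbp4, an IGF binding protein, measured 20.7, 18.0 and 16.7 CPM in contralateral and 78.7 and 80.5 CPM in tenotomy libraries (log2 fold change 2.11, SE 0.10), and Pdgfrl rose by 2.09. Fgf1 (−2.02) and Vegfb (−2.30), which muscle expresses, fell.

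Macrophage genes rose in all but a few cases, with 34 of 42 higher and 2 lower (median 1.98). Csf1r, the receptor for macrophage growth factor, measured 5.63, 7.45 and 6.02 CPM in contralateral and 15.7 and 15.9 CPM in tenotomy libraries (log2 fold change 1.30, SE 0.12). Adgre1, which encodes F4/80, measured 1.39, 1.37 and 1.02 CPM in contralateral and 6.69 and 6.86 CPM in tenotomy libraries (log2 fold change 2.43, SE 0.15, edgeR adjusted p = 9.68e-08). Neither overlapped between the groups. Itgax, an integrin of dendritic cells and activated macrophages, rose by 4.09, and the lysosomal protease Ctss by 3.16. Trem2 (2.60) and Gpnmb (2.68), of lipid-handling macrophages, were higher. Clec4d, an inducible lectin, had no contralateral count and 26 and 18 tenotomy counts, which is at least 20.6-fold higher against a floor of 3 counts over the group. Of genes of resident macrophages, Lyve1 was lower (−0.56, a call lost in 3 of 5 fits that left out 1 library and under 2 other scalings), and Cd163 (−0.24) and Folr2 (0.43) did not pass. Cd36 fell (−1.81), and muscle, fat and capillaries also express it.

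**Figure D4:**
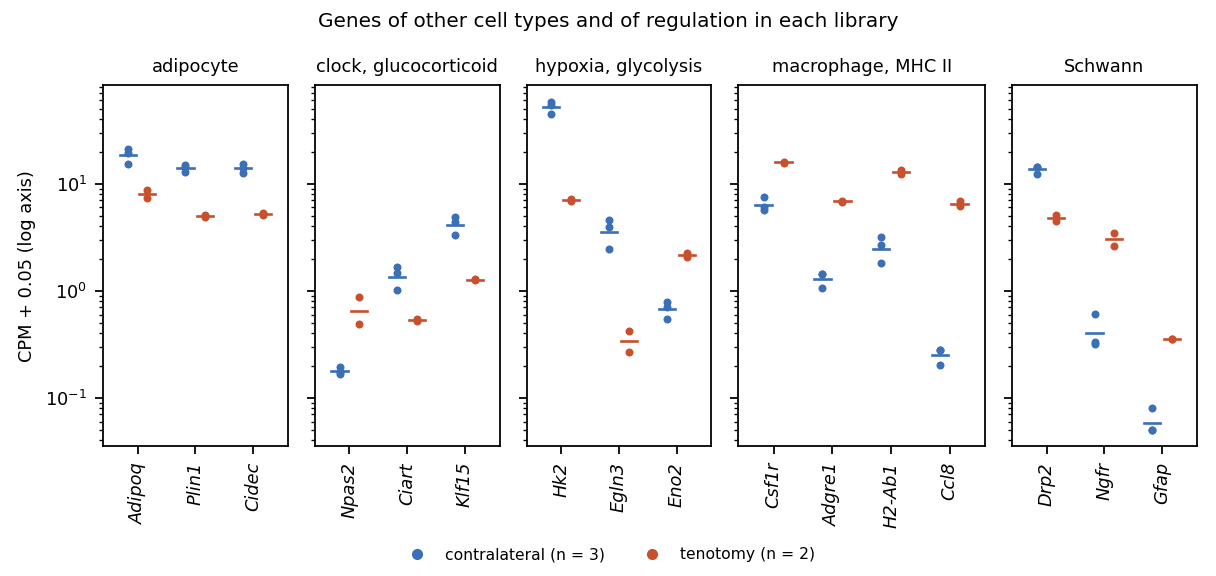
Each dot is 1 library; the vertical axis is CPM plus 0.05 on a log axis, blue for the 3 contralateral and red for the 2 tenotomy libraries, and short lines mark the geometric mean of the plotted values. Adipocyte genes and most clock and glycolysis genes shown were lower at the tenotomy site, macrophage and MHC class II genes higher, and Schwann cell genes went both ways, with Drp2 lower and Ngfr and Gfap higher.

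Antigen presentation and complement gave 23 of 32 genes higher and 4 lower (median 0.85), and all 7 MHC class II genes were higher. H2-Eb1 measured 2.47, 2.91 and 1.54 CPM in contralateral and 14.9 and 13.01 CPM in tenotomy libraries (log2 fold change 2.60, SE 0.18). The 4 falls were complement genes and regulators: C7 (−1.13), Cfd, the adipocyte factor D (−1.39), Clu (−0.78) and Cd59a (−0.39), of which the Clu call was lost without tenotomy replicate 2 and the Cd59a call in 3 of 5 fits that left out 1 library and under 2 other scalings. Among chemokines, cytokines and their receptors 32 of 45 were higher and 2 lower (median 1.44). Ccl8, a monocyte chemokine, measured 0.231, 0.228 and 0.154 CPM in contralateral and 6.15 and 6.79 CPM in tenotomy libraries (log2 fold change 4.96, SE 0.20). The receptor Ccr1 rose by 3.54 and the feedback inhibitor Socs3 by 3.09. In that list 18 members were too low to test, Il1b, Il6 and Tnf among them. Lifr, a receptor of the IL-6 family, fell (−0.90), as did the chemokine Ccl19 (−1.10, a call lost without tenotomy replicate 1), and Il6st, the shared receptor chain, was higher (0.45, a call lost in the fit of all 7 libraries).

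Interferon response genes were higher in 15 of 39 cases and lower in 3 (median 0.45), led by Irf8 (1.86), a myeloid factor. The 3 falls were Ifi27l2a (−1.45), Igtp (−1.01) and Gbp4 (−0.83), and the last 2 calls were lost without tenotomy replicate 1. The count of higher genes fell to 6 without tenotomy replicate 1 and to 9 without tenotomy replicate 2. Of lymphocyte genes 21 of 30 were too low to test. Il7r (3.22) and Cd4 (1.85), which myeloid cells can also express, were higher, and the immunoglobulin gene Ighm overlapped and did not pass (−0.56). Other immunoglobulin genes were higher at few counts. Igkc had 0, 3 and 2 counts in contralateral and 17 and 8 in tenotomy libraries. Igha went from 0, 2 and 3 counts to 14 and 9, and Iglv1 from 0, 0 and 0 counts to 10 and 9. Of granulocyte and mast cell genes 2 of 9 tested were higher, Cpa3 of mast cells (1.13) and Csf3r (1.30, a call lost without tenotomy replicate 2), while Mcpt4 did not pass (0.49).

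Cell division genes rose without exception among those called, with 33 of 46 higher and none lower (median 1.17), and 19 of 22 mitosis genes higher (median 2.28). Levels were low. The spindle checkpoint kinase Bub1 had 1, 1 and 0 counts in contralateral and 10 and 14 in tenotomy libraries, a ratio of 16.9 with a 95% counting interval from 4.19 to 147.4. Aurkb, a mitotic kinase, had 1 count in each contralateral library and 13 and 14 at the tenotomy site (ratio 12.7, interval 3.90 to 65.2). Ccnd3, the most abundant member, rose by 0.74. Cytosolic ribosomal protein genes rose by less: 42 of 55 were higher and none lower (median 0.49). Rpl3 measured 15.0, 12.0 and 11.0 CPM in contralateral and 30.0 and 32.6 CPM in tenotomy libraries (log2 fold change 1.31, SE 0.12). In the fit of all 7 libraries 18 of the 55 were higher.

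Of the lysosome and proton pump genes 29 of 47 were higher and 4 lower (median 0.75). Atp6v0d2 and Ctss led the rises, and Psap, the saposin precursor and most abundant member, rose by 0.51, a call lost in the fit of all 7 libraries. Tfeb, the regulator of lysosome genes, was lower (−0.84), as was Smpd1 (−0.90). The falls of Gaa (−0.37) and Atp6v0a1 (−0.30) were lost in 4 of 5 fits that left out 1 library.

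Endothelial genes held no common change: 7 of 39 were higher and 13 lower (median −0.14, which was 0.03 with library totals). Pecam1 measured 18.6, 18.3 and 17.4 CPM in contralateral and 18.1 and 17.6 CPM in tenotomy libraries (log2 fold change −0.02, SE 0.09), which did not pass, and Emcn did not pass either (0.02). Cdh5, the endothelial cadherin, measured 14.6, 14.8 and 16.3 CPM in contralateral and 11.7 and 12.7 CPM in tenotomy libraries and was lower without overlap (−0.32), a call lost without either tenotomy library and under 2 other scalings. Gpihbp1, which holds lipoprotein lipase on capillaries, measured 2.58, 2.34 and 2.81 CPM in contralateral and 0.519 and 0.773 CPM in tenotomy libraries (log2 fold change −2.01, SE 0.22), and Car4 fell by 2.48 on the log2 scale. Apln, a ligand of sprouting vessels, rose (1.80), with its receptor gene Aplnr (1.66). Pdpn rose most (2.30), and fibroblasts and macrophages also express it. Erythroid genes gave 4 of 9 higher and 1 lower, Bpgm (−0.62, a call lost without tenotomy replicate 1), with Hbb-bs at 0.53.

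Nerve genes moved in both directions. Of 30 Schwann cell and nerve genes 16 were higher and 8 lower (median 0.49), while of 12 myelin genes 7 were lower and 1 higher. Drp2, of the Schwann cell membrane, measured 14.3, 14.4 and 12.4 CPM in contralateral and 4.45 and 5.04 CPM in tenotomy libraries (log2 fold change −1.53, SE 0.12, edgeR adjusted p = 5.47e-07). Ngfr, the p75 receptor of non-myelinating and repair Schwann cells, measured 0.270, 0.285 and 0.556 CPM in contralateral and 2.60 and 3.43 CPM in tenotomy libraries (log2 fold change 2.99, SE 0.27). Gap43, of growing axons and repair Schwann cells, rose by 2.88. Gfap had 0, 0 and 1 counts in contralateral and 11 and 9 in tenotomy libraries, a ratio of 28.1 with an interval from 4.50 to 1166. Sox10 (0.90), a general Schwann cell marker, was higher. With all 7 libraries in the fit the myelin calls of Drp2 and Ugt8a were lost and 1 of the 8 falls in the list remained.

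Among imprinted and fetal growth genes 15 of 25 were higher and 4 lower (median 0.78). Mest measured 1.81, 1.66 and 1.51 CPM in contralateral and 11.9 and 11.9 CPM in tenotomy libraries (log2 fold change 2.85, SE 0.12), and the zinc finger gene Plagl1 rose by 2.81, with Meg3 at 2.32. H19 went the other way. It measured 53.9, 60.8 and 53.6 CPM in contralateral and 25.2 and 23.3 CPM in tenotomy libraries (log2 fold change −1.21, SE 0.10), and Nnat also fell (−1.62); both calls were lost in the fit of all 7 libraries. The other 2 falls were Grb14 (−0.89) and Hmga1 (−0.61, a call lost without either tenotomy library). In the nerve guidance and adhesion list 31 of 51 were higher and 7 lower (median 0.58). Cdh11, the mesenchymal cadherin, measured 1.77, 1.48 and 1.27 CPM in contralateral and 18.2 and 17.3 CPM in tenotomy libraries (log2 fold change 3.57, SE 0.13, edgeR adjusted p = 1.68e-09). Epha3, an ephrin receptor, rose by 2.91, and Itgb1bp2, a muscle integrin binding protein, fell by 3.14 on the log2 scale. Of epidermis genes 17 of 22 were too low to test, with 1 of 5 higher (Sbsn, a call lost without tenotomy replicate 1) and 1 lower (Trp63, a call lost without tenotomy replicate 2).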

How the data were processed

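Total RNA was extracted with Trizol, cleaned on columns and prepared for sequencing with TruSeq reagents, per the labels' protocols. The submitters' processing notes name FastQC 0.11.4, kallisto and, although the samples are mouse, the genome build name GRCh38. The annotation behind the files is not given in the sources used here. The authors deposited for each library 103639 transcripts with estimated counts, not normalized, and TPM, which are scaled by transcript length, per the file headers.

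Transcript IDs were matched without version to GENCODE M21 (GRCm38): 101510 matched, 57625 of them with the same version, and 2129 were kept as single features. Estimated counts were summed per gene and rounded. The 5 libraries were filtered with filterByExpr (minimum count 10), scaled by TMM and tested with the quasi-likelihood test of edgeR 4.0.16 (R 4.3.3), Benjamini-Hochberg threshold 0.05 over 16014 features, log2 CPM with a prior count of 2. CPM in the text are counts per 1000000 of the scaled library total. An exact permutation test of 2 against 3 libraries cannot go below 0.2 and was not used. Intervals of count ratios are 95% and cover counting error only.

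The comparison, the 37 gene lists and the naming rule were chosen with earlier results of these data known. The rule named, in each direction, the 12 called genes that changed most, given a mean log2 CPM of at least 3 and libraries that do not overlap, the 12 largest falls outside the muscle lists, and for each list its most abundant member, the 2 largest called changes in each direction and up to 5 members against the majority. To these it added Map3k7, Col2a1, Acan, Sox9, Runx2, Scx, Tnmd, Postn and Col1a1. Other list members and markers named in the text were chosen after their values were seen. A few list members are counted but not reported here by name. Alternatives were other scalings, filters, thresholds and tests (DESeq2 1.42.0, limma-voom of limma 3.58.1), removal of muscle, abundant or unmatched features, length-scaled TPM, all 7 libraries, and leaving out each library; a fit of protein-coding genes only was added after the data were seen. On counts simulated for 16014 genes of this comparison with 200 changed by 2 on the log2 scale, edgeR called 174 of the 200 and 17 others, and 2 when nothing was changed.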

Additional observations from a re-analysis of the deposited data

Results flagged for a closer look

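The 2 libraries labelled as uninjured mice entered no fit and were set beside the others on counts per 1000000 of the library total, a scale without TMM. Col2a1 measured 17.4 in uninjured replicate 1 and 1.41 in uninjured replicate 2, against 0.354 to 0.650 in contralateral libraries. Acan measured 48.2 and 1.13, against at most 1.10. Postn measured 292.2 and 12.5, against at most 11.0. Col1a1 measured 2474 and 2018, against at most 492.1 in contralateral and 2693 and 2842 in tenotomy libraries. Both uninjured values of Col1a1 thus lay nearer the tenotomy than the contralateral libraries. Both uninjured libraries were therefore above every contralateral library for these 4 genes. For Mmp13, replicate 1 measured 24.2 and replicate 2 measured 0.063. For Ckm, the muscle creatine kinase, replicate 1 measured 84.2 and replicate 2 measured 487.4, the tenotomy libraries 66.1 and 67.6, and the contralateral libraries 467.6 to 581.5. By its label the first of these libraries is uninjured, and its values for Col2a1, Acan, Postn and Mmp13 lay between those of the contralateral and the tenotomy libraries. Whether its label is right was not tested.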

How the results depend on the processing

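The counts of 3533 higher and 3852 lower features became 1704 and 2061 in a test against a 1.5-fold change, and 2178 and 2465 with all 7 libraries in the fit. With 1 library left out they ranged from 2398 to 3661 higher and from 2847 to 3957 lower; tenotomy replicate 1 gave the lowest counts when left out. In all 5 of those fits 2037 (57.7%) of the higher and 2423 (62.9%) of the lower calls were kept. Fits without a tenotomy library rest on 1 library that is assumed to vary like the contralateral ones. DESeq2 called 2488 and 2831, limma-voom 3616 and 3749, and the added fit of protein-coding genes 3571 and 3480. With muscle and mitochondrial genes removed there were 3516 higher and 3600 lower, of which 3476 and 3592 were also called with those genes present. That fit removed 241 genes by name, and muscle genes outside the lists, such as Flnc and Srl, stayed in. It therefore cannot show which changes go beyond muscle content. Directions of list medians and of genes named by rule turned in 7 cases: the endothelium median (0.028 with library totals), the medians of the TAK1, lymphocyte and epidermis lists at a minimum count of 50 (0.15, −0.51 and 1.15, with fewer genes tested), and, with length-scaled TPM, Ncam1 (−0.75), Col7a1 (0.49) and Map3k7 (0.017), none of them called. The cause of the last 3 was not tested. Of genes that did not pass, named outside the rule, the sign turned for Pecam1 (0.098 with upper quartile scaling, 0.14 with library totals, 0.032 at a minimum count of 50, 0.014 without the 5 most abundant features, 0.017 with protein-coding genes), Emcn (−0.032) and Tgfb2 (−0.14), both with length-scaled TPM. With 1 library left out Pecam1 ranged from −0.046 to 0.013, Emcn from −0.053 to 0.11, Tgfb2 from −0.0096 to 0.22, Sox5 from −0.036 to 0.19, Fmod from −0.11 to 0.37 and Col10a1 from −1.07 to 0.43. Of 189 called genes named by rule, 27 lost the call in at least 1 fit that left out a library and 49 under at least 1 alternative. No paired analysis was possible because the replicate numbers follow accession order and the labels do not tie libraries to mice. Title numbers place tenotomy replicate 2 in another run of numbers than the other 4 libraries, and the labels name no batch. With 2 tenotomy libraries and most counts on 5 features, depth limits genes of few counts, such as those of mitosis and of lymphocytes.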

Other observations

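Several gene groups outside the lists stood out after the values were seen, so these are descriptions only. Of 54 tested histone genes 45 were higher and none lower, with a median log2 fold change of 2.66, against 22.1% of all features higher. Histone genes have near-identical copies, so the split between single genes is uncertain. Of 42 tested ribosomal RNA features encoded outside the mitochondrial genome, 38 were higher and none lower (median 1.12), and they too are copies of one another.

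Secreted and membrane proteins made up further large rises. C1qtnf3, a secreted protein of cartilage and fibroblasts, measured 0.386, 1.23 and 0.463 CPM in contralateral and 63.7 and 62.6 CPM in tenotomy libraries (log2 fold change 6.44, SE 0.23). Lrrc15, a membrane protein of activated fibroblasts, measured 0.193, 0.457 and 0.525 CPM in contralateral and 16.3 and 17.1 CPM in tenotomy libraries (log2 fold change 5.35, SE 0.18). Edil3 (3.85), Spon1 (3.08) and the prostaglandin synthase Ptgs2 (3.51) were higher too. Slpi, a secreted protease inhibitor, had 1, 1 and 0 counts in contralateral and 31 and 33 in tenotomy libraries, a ratio of 45.0 with a 95% counting interval from 12.0 to 379.8. Trim5 had no contralateral count and 38 and 23 tenotomy counts, at least 28.6-fold higher against a floor of 3 counts over the group. Among falls outside the lists, Bdh1, a ketone body enzyme, measured 8.40, 12.8 and 11.7 CPM in contralateral and 0.410 and 0.336 CPM in tenotomy libraries (log2 fold change −4.86, SE 0.26), and Coch, cochlin, measured 5.20, 5.17 and 2.99 CPM in contralateral and 0.328 and 0.101 CPM in tenotomy libraries (log2 fold change −4.28, SE 0.39). The libraries of the 2 groups did not overlap for any gene named in this paragraph. These genes were chosen after their values were seen, and 63.6% of all features did not overlap either.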
